A study of Homo sapiens with 6 samples.

Results

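The 44 genes described here encode core proteins of the major spliceosome, and they were taken by symbol from a table of 63677 genes counted in HEK293 cells, a human embryonic kidney line. All 44 were found, and all 44 passed the filter on low counts that left 22331 genes to be tested. Cells had been transfected with an siRNA against circRAB3IP (siRAB3IP, 2 libraries), with an siRNA against circCAMSAP1 (siCAMSAP1, 2 libraries) or with a non-targeting control siRNA (control, 2 libraries), and poly(A) RNA was taken 48 hours later from cells with no other treatment or allele named in the labels. Both targets are circular RNAs, made by joining exons of the RAB3IP or CAMSAP1 transcript head to tail, and the series sets each knockdown against the control siRNA to ask what follows for gene expression and the processing of mRNA.

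The spliceosome removes introns from pre-mRNA and is assembled anew on each intron from small nuclear ribonucleoproteins (snRNPs), which are uridine-rich small nuclear RNAs wrapped in proteins. The U1 snRNP finds the 5′ splice site, SF1 and the U2AF proteins mark the branch point and the 3′ splice site, the U2 snRNP then replaces SF1, and the tri-snRNP of U4, U6 and U5 joins before helicases and the Prp19 complex turn the assembly into an active enzyme. Dividing cells use this machinery all the time, and its genes are counted among the housekeeping genes.

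The libraries held 37379217 to 39637733 fragments in genes. Group names are those of the authors' deposited tables, since in 4 of the 6 libraries the title of the sample record names another group. The records' genotype field makes the same groups as the titles but exchanges the names of the knockdowns, and the tables' grouping differs from both. With the titles or the genotype field as groups, 0 of the 22331 genes passed edgeR's quasi-likelihood test at an adjusted p of 0.05 in each comparison, and with the titles an unadjusted p under 0.05 was seen for 350 genes in siRAB3IP against control, 441 in siCAMSAP1 against control and 471 in siRAB3IP against siCAMSAP1. Which set of names is right is not given in the sources used here. Whether libraries of the same group were grown as separate cultures is not stated, and every p-value here is a statement on how far these libraries spread, possibly for technical reasons. The circular targets themselves are not read by gene counts of poly(A) RNA, so the knockdowns could not be checked against the labels here. Among genes chosen as marks of HEK293 cells, LIN28B, IGF2BP1 and EYA1 were present at 4.45 CPM or more in every library (counts-per-million, scaled to all fragments in genes), while PAX2 and NEFM stayed at or below 0.333 CPM. The 7 markers of blood, liver, muscle and keratinocytes were at 2.80 CPM or less.

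Promoters are shown for the 3 genes on which the comparisons below turn most: DDX46, the only one that passed the test without a replicate block, SF3A3, which the authors' siRAB3IP table also lists, and SF1, which came closest to the threshold. Each is given as the 150 bases before the annotated start, from RefSeq on GRCh38.p14, 5′ to 3′ on the gene's strand. DDX46 lies at chr5:134758629-134758778 on the plus strand, SF3A3 at chr1:37990023-37990172 on the minus strand and SF1 at chr11:64778543-64778692 on the minus strand. Capitals mark matches to words searched on both strands, of which 3 were found here. These are CCGGAAG (the core bound by ETS factors), CCAAT (the CCAAT box) and GGGCGG (the GC box). Words for NRF1, YY1, the TATA box and the E-box were searched as well and had no match in these stretches.
DDX46 promoter: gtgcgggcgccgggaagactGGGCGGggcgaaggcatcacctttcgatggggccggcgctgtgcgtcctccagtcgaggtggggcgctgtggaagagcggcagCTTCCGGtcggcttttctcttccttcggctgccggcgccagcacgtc
SF3A3 promoter: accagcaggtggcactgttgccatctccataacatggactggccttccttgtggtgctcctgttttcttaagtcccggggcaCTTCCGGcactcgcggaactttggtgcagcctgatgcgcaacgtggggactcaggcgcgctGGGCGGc
SF1 promoter: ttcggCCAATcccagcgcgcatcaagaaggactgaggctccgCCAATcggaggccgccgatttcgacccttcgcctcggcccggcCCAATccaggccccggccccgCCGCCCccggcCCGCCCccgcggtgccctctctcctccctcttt
The DDX46 and SF3A3 stretches each hold 1 ETS word and 1 GC box. The SF1 stretch holds 3 CCAAT boxes and 2 GC boxes and no ETS word.

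Among the promoters of the 44 genes, 41 were matched in the RefSeq table, each 250 bases before to 50 bases after the start. For 34 of the 41, the first 25 bases from the start lay in a transcript of the gene in GENCODE release 29. The ETS word was present in 22 of 41 (53.7%), against 14.2% of 15843 promoters of protein-coding genes of the same length. Those 15843 were not limited to genes expressed in these cells. The CCAAT box was present in 36.6% of the 41 and in 36.4% of all, and the GC box in 65.9% against 58.5%. The TATA word TATAAA was found in 1 of 41 (SNRPC, 2.44%), against 9.63% of all. Median GC content was 61.3% in the core spliceosome promoters and 62.7% in all. The ETS word was found in every role, and the roles differ in their number of genes. Its carriers were SNRPB, SNRPD2, SNRPE and SNRPG of the Sm ring and DDX46, DHX8, DHX16, DHX38 and AQR of the helicases. Those of the U2 snRNP were SF3A1, SF3A2, SF3A3, SF3B2, SF3B4, SF3B6, SNRPA1 and SNRPB2. The other carriers were SNRPC of U1, U2AF2, SNRNP200 and PRPF6 of the U5 and tri-snRNP genes, and BUD31 of the activated spliceosome. These are matches of letters, not measured binding sites.

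The core spliceosome genes were well expressed in every group. Their median level over the 6 libraries was 28.7 CPM per kilobase of counted exons, against 2.24 for all genes tested, and 93.1% of tested genes lay below the median of the 44. Together they took 6933 and 6515 CPM in the siRAB3IP libraries, 7116 and 6815 CPM in the siCAMSAP1 libraries and 7263 and 7071 CPM in the control libraries. Both siRAB3IP sums were below both control sums in CPM, and the siCAMSAP1 sums overlapped with both other groups. With the library scaling used in the tests the sums were 7143 and 6604 in siRAB3IP, 7160.4 and 6775 in siCAMSAP1 and 7255 and 6773 in control, which overlap. The ratio of the highest to the lowest library ran from 1.06 to 1.53 over the 44 genes, with SNRPB2 at the top. In bulk RNA of this kind, fewer cells with a transcript and less of it per cell cannot be told apart.

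**Figure D1:**
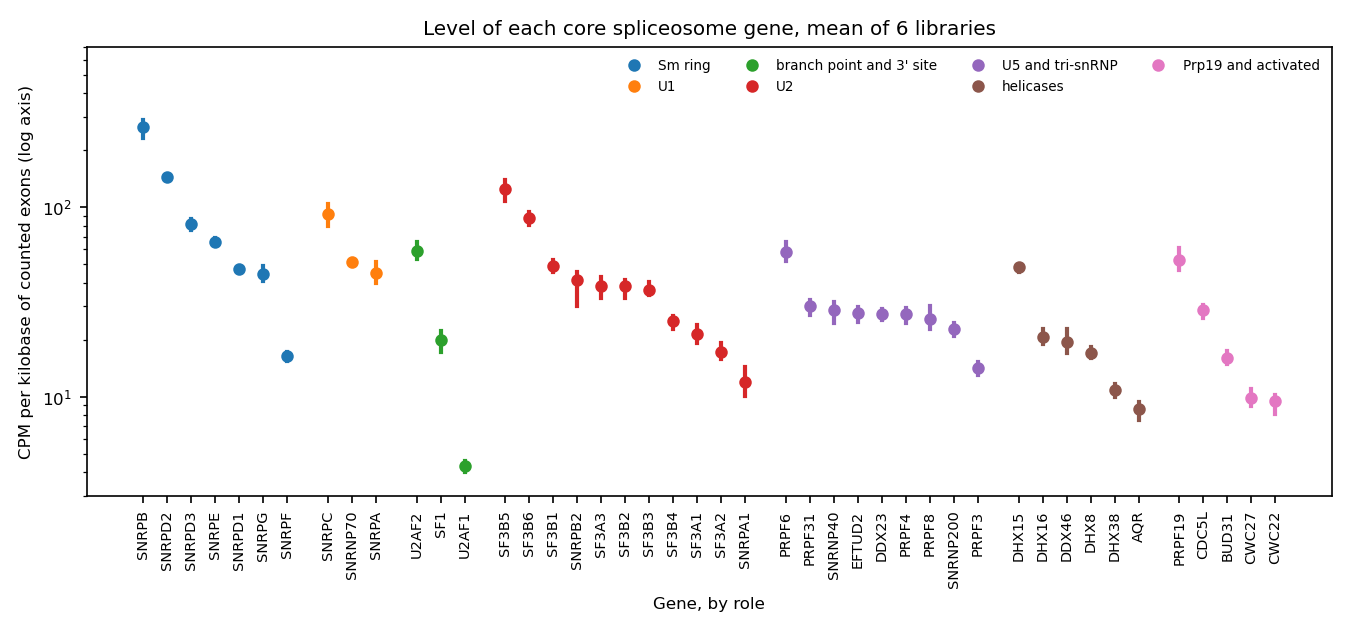
Level of each of the 44 genes as counts-per-million (CPM) per kilobase of counted exons, on a log axis, ordered within 7 roles. Points are means of the 6 libraries and bars run from the lowest to the highest library, and the range between genes is far wider than the range between libraries, with SNRPB at 263.9 and U2AF1 at 4.31.

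Levels per kilobase differed widely within complexes whose proteins come together in fixed numbers. In the Sm ring, the 7 proteins that encircle the U1, U2, U4 and U5 RNAs, SNRPB (Sm B/B′) led with 263.9 CPM per kilobase, followed by SNRPD2 with 143.8 and SNRPD3 with 81.3, and SNRPF was lowest with 16.4. In the SF3b part of the U2 snRNP, the small subunits SF3B5 and SF3B6 had 124 and 87.5 CPM per kilobase, and the large SF3B1, which cradles the branch-point duplex, had 49.2. AQR, a helicase that binds the intron, and the cyclophilin-like CWC27 and the exon junction factor CWC22 were low, at 8.65, 9.80 and 9.49 CPM per kilobase. U2AF1, which reads the AG of the 3′ splice site, was lowest of all with 4.31, over a counted model of 11112 bases. With the longest principal transcript of GENCODE release 29 (962 bases for U2AF1) as the length, an alternative chosen after seeing the data, U2AF1 had 49.8 CPM per kilobase and ranked 19 of 44, while SNRPB remained first and SNRPD2 second in rank. The order within the Sm ring changed with that length: SNRPD1 became lowest with 17.8 CPM per kilobase, SNRPF had 35.8, and SNRPG with 128 stood above SNRPD3 with 117. For SNRPD1 that length was 4909 bases, while its fragments were counted over a model of only 1841 bases. Its last place with that length therefore cannot be read as a low level. In SF3b, the gene SF3B2 had 38.2 CPM per kilobase of counted exons and 129 with that length, near SF3B5 with 132 and SF3B6 with 136. SF3B1 had 69.1 with it, and SF3B4 had 25.2 per kilobase of counted exons and 27.1 with it. Only primary alignments were counted, so a fragment that fits a near-identical copy equally well was given to 1 place. For SNRPG the 20 copies named after it in the table held 22.2% as many fragments as the gene itself, for U2AF1 3.87%, for SNRPE 1.85%, and for the other members with such copies under 1%.

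Against control, siRAB3IP left 43 of the 44 genes short of the threshold without a replicate block, and 1, the helicase gene DDX46, rose. That is 2.27% of the members called, where 11.6% of all genes tested were called (6.39% higher and 5.24% lower, or 1427 higher and 1170 lower genes). With the replicate number as a block, 12 of 44 members (27.3%) were called beside 24.1% of all genes, with DDX46, SNRPA1, SNRPD3 and BUD31 higher and SF1, SF3A3, SF3A1, SNRPA, SNRPC, SNRPB2, PRPF6 and AQR lower. The share of members called was thus below that of all genes in the fit without the block and not with it. It also depended on scaling: without scaling beyond library size and without the block, 11.4% of members were called beside 11.6% of all genes. Adjusted p-values below come from the fit without it, and the blocked one is added where it changes the call. Without scaling beyond library size, the split over all genes turned to 951 higher and 1640 lower. Among the 6319 genes within the members' range of mean CPM, 18.7% were called. An unadjusted p under 0.05 in edgeR's test was found for 8 of 44 members (18.2%), for 25.8% of all genes and for 37.1% of genes within that range. The members' log2 fold changes lay between -0.28 and 0.34, with a median absolute value of 0.12, against 0.22 over all genes and 0.14 over genes within their range of CPM. Their standard errors ran from 0.07 to 0.12.

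In signed terms 18 members had positive and 26 negative log2 fold changes in siRAB3IP against control, with a median of -0.07 beside -0.01 for all genes. Genes within the members' range of mean CPM had 3625 positive and 2694 negative values, with a median of 0.04. The members' median was 0.03 without control replicate 1 and 0.01 without siRAB3IP replicate 2, so 1 library of either group decided its sign. Without scaling beyond library size, 13 members were positive and 31 negative. For 29 members (65.9%) both siRAB3IP libraries lay on one side of both control libraries in CPM, which carry no TMM scaling. The share was 54.6% over all genes and 63.7% over genes within the members' range of CPM. Of the 29 members, 22 lay lower and 7 higher, beside 7651 lower and 4539 higher over all genes tested. Among genes within the members' range of CPM, 2286 lay lower and 1738 higher.

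**Figure D2:**
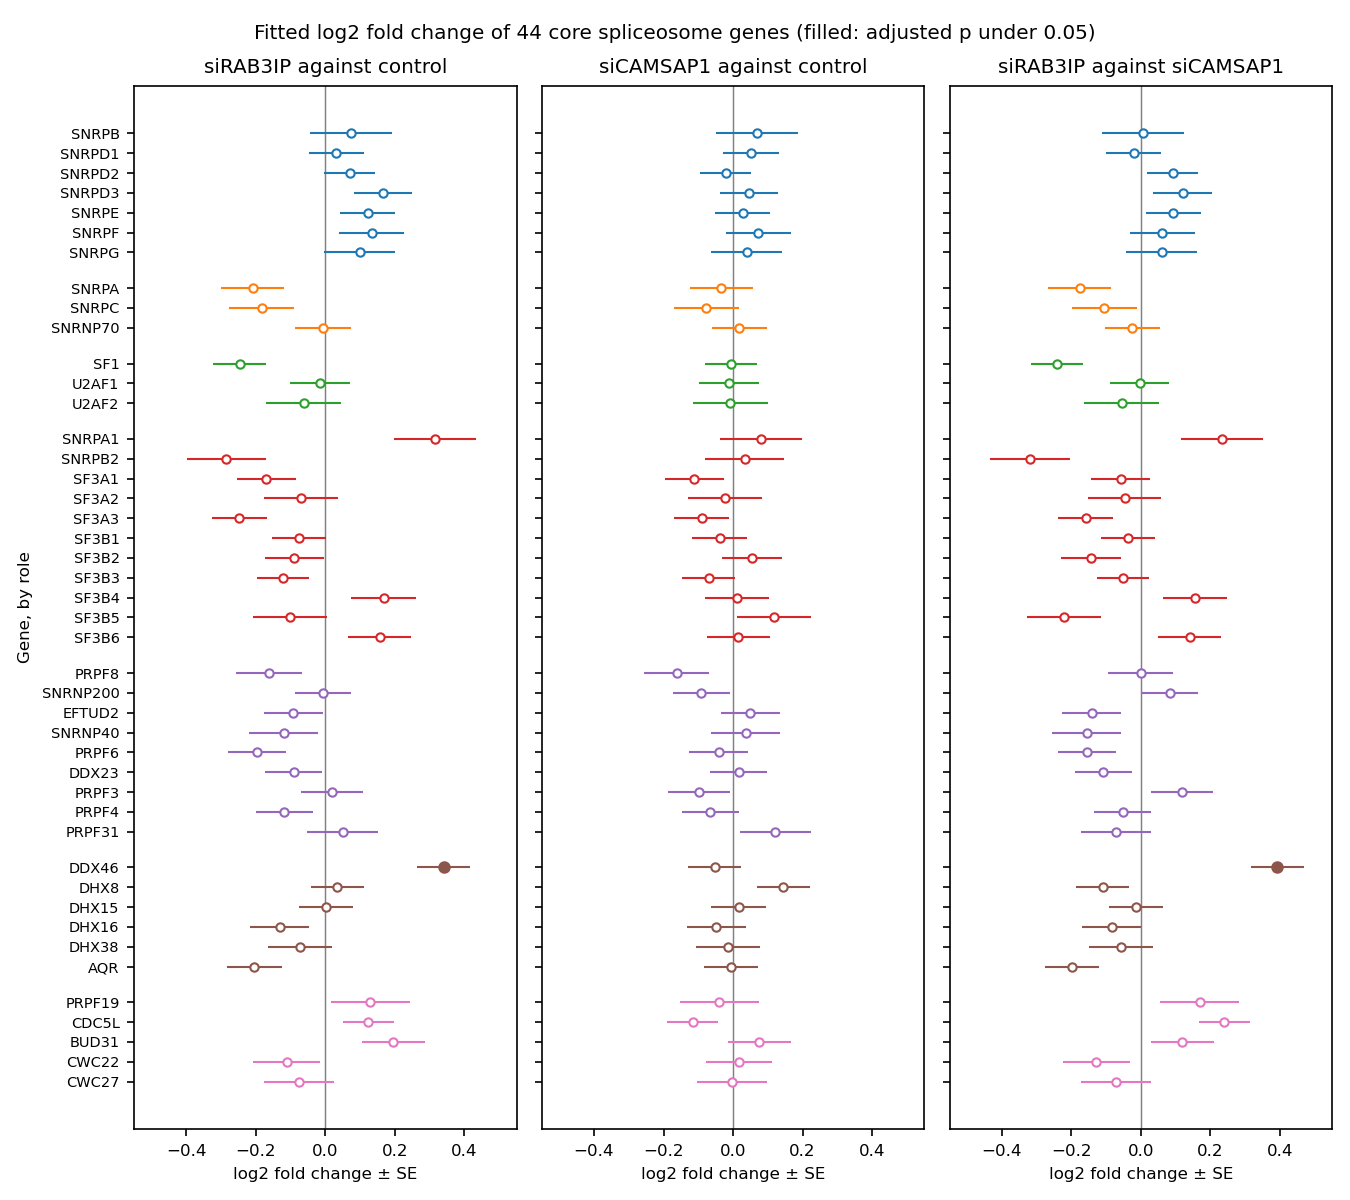
Fitted log2 fold change (horizontal axis) with its standard error for each of the 44 genes, in siRAB3IP against control, siCAMSAP1 against control and siRAB3IP against siCAMSAP1, coloured by role. Filled points passed the adjusted p of 0.05, which are DDX46 in the left and right panels and none in the middle panel, and siCAMSAP1 values stay between -0.16 and 0.14.

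DDX46 is the human counterpart of yeast Prp5, a DEAD-box helicase that remodels the U2 snRNP as it takes the branch point. The gene lies on hg19 chromosome 5, 134094469 to 134190823. It had 209.9 and 205.5 CPM in the siRAB3IP libraries, 156 and 167 CPM in the siCAMSAP1 libraries and 166 and 177 CPM in the control libraries. Both siRAB3IP libraries lay above the other 4, and the siCAMSAP1 and control libraries overlapped. In edgeR's quasi-likelihood test DDX46 rose by 0.34 ± 0.08 (log2, SE) in siRAB3IP against control, with an adjusted p of 0.0129, and was higher by 0.39 ± 0.08 in siRAB3IP than in siCAMSAP1, with an adjusted p of 0.00729. For siCAMSAP1 against control the same edgeR test gave -0.05 ± 0.08 (adjusted p 0.852). These fold changes are scaled by TMM factors (a trimmed mean of gene ratios that sets each library's scale), between 0.971 and 1.04 here. They therefore differ from ratios of the printed CPM. In siRAB3IP against control the median over all genes was -0.01 with these factors and -0.07 without scaling beyond library size. SNRPD1, DHX8 and PRPF31 had lower mean CPM in siRAB3IP than in control but positive estimates of 0.03, 0.03 and 0.05.

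The authors' deposited table for siRAB3IP lists DDX46 with a log2 fold change of 0.3484 ± 0.0865 and an adjusted p of 0.00111. In edgeR's test the call against control was lost without control replicate 1 (adjusted p 0.0504), without siRAB3IP replicate 1 (adjusted p 0.0999) and without siRAB3IP replicate 2 (adjusted p 0.0589), with log2 fold changes of 0.33, 0.31 and 0.37. It was also lost when the test asked for a change beyond a fold of 1.2 (edgeR's glmTreat, adjusted p 0.414). Against siCAMSAP1 it was lost without siRAB3IP replicate 1 (adjusted p 0.0628) and without siCAMSAP1 replicate 1 (adjusted p 0.0762) in the same edgeR test, and with glmTreat (adjusted p 0.24). The counted exons of DDX46 share 236 bases (2.56%) with those of C5orf24 on the same strand, and fragments were counted without regard to strand.

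**Figure D3:**
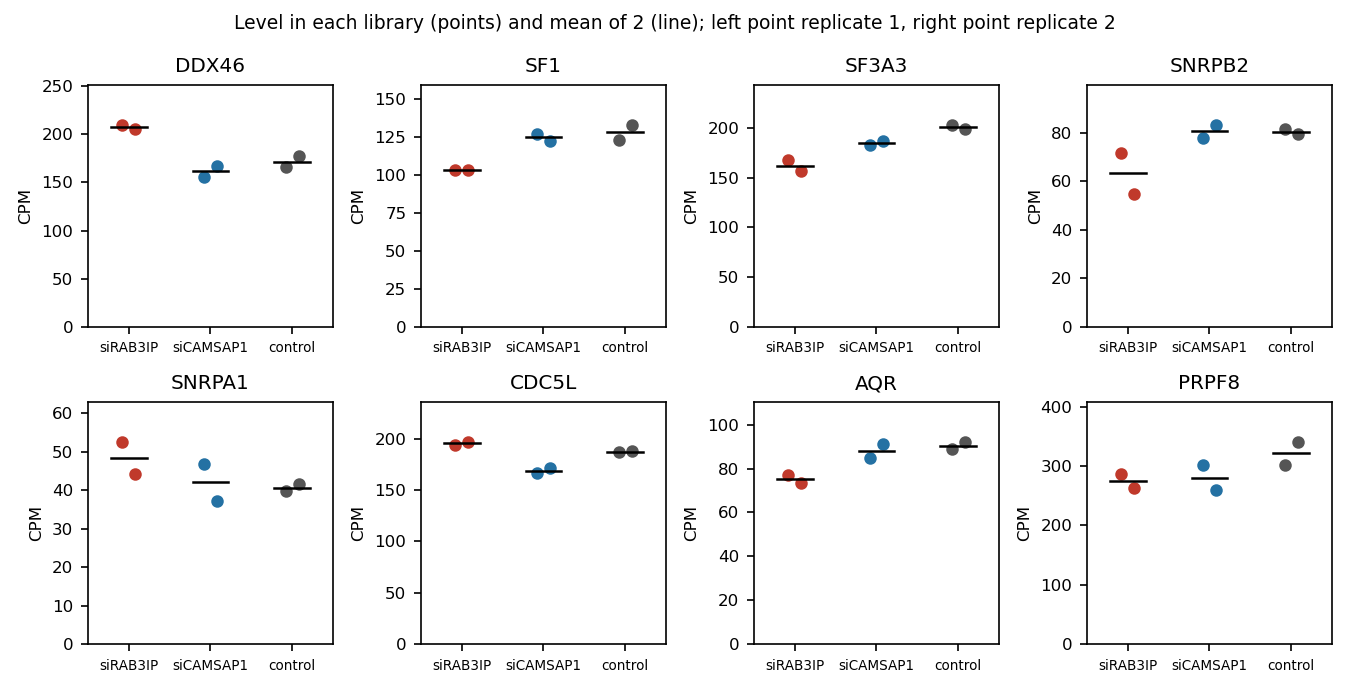
The level in CPM in each library for DDX46, SF1, SF3A3, SNRPB2, SNRPA1, CDC5L, AQR and PRPF8, with vertical axes that start at 0. Points are single libraries and lines are the means of 2, and both siRAB3IP libraries lie above all others for DDX46 and below all others for SF1, while the siRAB3IP libraries of SNRPB2 stand apart from each other at 71.8 and 54.6.

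The remaining helicases drive later steps: DHX16 and DHX38 act around the catalytic steps, DHX8 releases the spliced mRNA and DHX15 takes apart what is left. DHX15, the highest of them per kilobase, had 393 and 373 CPM in siRAB3IP, 391 and 399 CPM in siCAMSAP1 and 401 and 398 CPM in control. AQR had 77.0 and 73.3 CPM in siRAB3IP, 84.9 and 91.3 CPM in siCAMSAP1 and 88.8 and 92.1 CPM in control. Its siRAB3IP libraries lay below the other 4, and edgeR gave -0.20 ± 0.08 against control (adjusted p 0.119, or 0.0213 with the block). Against siCAMSAP1 the blocked edgeR fit gave AQR an adjusted p of 0.0285. DHX8 had the largest positive estimate of any member in siCAMSAP1 against control, 0.14 ± 0.08 (adjusted p 0.49 by edgeR), from 171 and 166 CPM in siCAMSAP1 beside 153 and 159 CPM in control.

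The Sm ring genes had positive estimates in siRAB3IP against control in 7 of 7 cases (6 of 7 without scaling beyond library size), with a median of 0.10 and none of them called. The largest was SNRPD3 (Sm D3) with 221 and 211 CPM in siRAB3IP, 209 and 198 CPM in siCAMSAP1 and 208 and 194 CPM in control. The estimate against control was 0.17 ± 0.08 (adjusted p 0.241 by edgeR, or 0.0293 with the block), and 12.6% of its counted exons overlap GUCD1 on the other strand while a like stretch overlaps GGT1 on its own. SNRPB, the most abundant of the 44, had 508 and 452 CPM in siRAB3IP, 517 and 460 CPM in siCAMSAP1 and 526 and 424 CPM in control, so the libraries of a group differed by more than the groups did. SNRPF had 52.5 and 49.4 CPM in siRAB3IP, 52.7 and 47.0 CPM in siCAMSAP1 and 50.1 and 46.9 CPM in control. The positive estimates in the Sm ring numbered 4 of 7 without siRAB3IP replicate 1 and 5 of 7 without control replicate 2.

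The 3 U1-specific genes had negative estimates in siRAB3IP against control, with a median of -0.18 and none called, and 1 of the 3 turned positive under RLE scaling (by a median of gene ratios), without control replicate 1 and without siRAB3IP replicate 2. SNRPA, which encodes U1-A, had 95.0 and 94.3 CPM in siRAB3IP, 113 and 106 CPM in siCAMSAP1 and 121 and 107 CPM in control. In edgeR's test it differed from control by -0.21 ± 0.09 (log2, adjusted p 0.164, or 0.0199 with the block). SNRPC, which encodes the zinc-finger protein U1-C at the 5′ splice site, had 113 and 102 CPM in siRAB3IP, 125 and 112 CPM in siCAMSAP1 and 132 and 123 CPM in control (adjusted p 0.243 by edgeR, or 0.0213 with the block). For SNRNP70 (U1-70K) the estimate was -0.01 ± 0.08. In CPM, which carry no TMM scaling, both siRAB3IP libraries lay below both control libraries in all 3 genes. Of the 22331 genes tested, 7651 lay below in this way and 4539 lay above.

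Of the genes that mark the branch point and the 3′ splice site, SF1 came closest to the threshold. SF1, the branch-point-binding protein (hg19 chromosome 11, 64532078 to 64546258), had 103.2 and 103.4 CPM in siRAB3IP, 127 and 122 CPM in siCAMSAP1 and 123 and 133 CPM in control. The siRAB3IP libraries lay below the other 4, which overlapped among themselves. In edgeR's test the log2 fold change was -0.25 ± 0.08 against control (adjusted p 0.053), and -0.24 ± 0.08 against siCAMSAP1 with an adjusted p of 0.0673. DESeq2 put SF1 past the threshold against control, with an adjusted p of 0.0472. The blocked edgeR fit did so in both comparisons, with adjusted p of 0.00374 and 0.00519. U2AF2, the large U2AF subunit that binds the polypyrimidine tract, had 241 and 220.0 CPM in siRAB3IP, 264 and 226 CPM in siCAMSAP1 and 270.3 and 232 CPM in control. U2AF1 had 48.7 and 44.6 CPM in siRAB3IP, 49.0 and 46.6 CPM in siCAMSAP1 and 47.7 and 50.9 CPM in control. The U2AF genes overlapped between all groups.

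The U2 snRNP held the widest spread of estimates in siRAB3IP against control, from -0.28 to 0.31. SF3A3, a subunit of the SF3a part of U2 (hg19 chromosome 1, 38422647 to 38456593), had 168 and 157 CPM in siRAB3IP, 183 and 187 CPM in siCAMSAP1 and 203 and 199 CPM in control. The 3 groups did not overlap, with siCAMSAP1 in the middle. For siRAB3IP against control edgeR gave a log2 fold change of -0.25 ± 0.08 (adjusted p 0.0619, or 0.00306 with the block), while the authors' deposited table lists it with -0.2419 ± 0.0859 and an adjusted p of 0.0365. The siCAMSAP1 estimate against control was -0.09 ± 0.08 (adjusted p 0.721 by edgeR). SF3A1, the largest SF3a subunit, had 128 and 122 CPM in siRAB3IP, 141 and 126 CPM in siCAMSAP1 and 144 and 151 CPM in control (adjusted p 0.227 by edgeR for siRAB3IP against control, or 0.0431 with the block).

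SNRPA1 and SNRPB2 encode U2-A′ and U2-B″, which sit side by side on a stem-loop of the U2 RNA, and their estimates pointed opposite ways. SNRPB2 had 71.8 and 54.6 CPM in siRAB3IP, 77.9 and 83.2 CPM in siCAMSAP1 and 81.6 and 79.2 CPM in control. The siRAB3IP libraries lay below the other 4 but apart from each other. The log2 fold change against control was -0.28 ± 0.11 with an adjusted p of 0.136 by edgeR, or 0.0156 with the block. Against siCAMSAP1 the adjusted p was 0.11, or 0.00833 with the block. Without siRAB3IP replicate 1 the lower library stood alone, with its spread taken from the other groups, and the values were -0.51 against control (adjusted p 0.021 by edgeR) and -0.54 against siCAMSAP1 (adjusted p 0.0165), so that library decides the size. SNRPA1 had 52.5 and 44.2 CPM in siRAB3IP, 46.9 and 37.2 CPM in siCAMSAP1 and 39.8 and 41.5 CPM in control. The SNRPA1 estimate against control was 0.31 ± 0.12 (adjusted p 0.11 by edgeR, or 0.00721 with the block), and the siCAMSAP1 libraries spanned the control ones. Against siCAMSAP1 the blocked edgeR fit gave SNRPA1 an adjusted p of 0.0368.

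Among the 6 SF3b genes of the 44, none was called in any comparison without the block. SF3B1 had 440.4 and 419 CPM in siRAB3IP, 436 and 464 CPM in siCAMSAP1 and 461 and 485 CPM in control. SF3B5 was the third lowest member in siRAB3IP against siCAMSAP1, with 85.8 and 79.9 CPM in siRAB3IP, 101 and 96.4 CPM in siCAMSAP1 and 102 and 83.4 CPM in control. That difference was -0.22 ± 0.11 on the log2 scale (adjusted p 0.236 by edgeR, or 0.0226 with the block). SF3B4 and SF3B6 had positive estimates against control, 0.17 and 0.16, where the other SF3b genes among the 44 had negative ones.

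The U5 and tri-snRNP genes had 7 negative and 2 positive estimates in siRAB3IP against control (9 negative without scaling beyond library size), with a median of -0.09 and none called. PRPF6, a bridge within the tri-snRNP, had 159.5 and 159.2 CPM in siRAB3IP, 185 and 177 CPM in siCAMSAP1 and 199 and 182 CPM in control. Against control PRPF6 differed by -0.20 ± 0.08 (adjusted p 0.157 by edgeR, or 0.0175 with the block), with both siRAB3IP libraries below the other 4. PRPF8, the scaffold of the catalytic centre, had 286 and 263 CPM in siRAB3IP, 301 and 259.6 CPM in siCAMSAP1 and 302 and 340.2 CPM in control. The estimates of PRPF8 against control were -0.16 ± 0.09 in siRAB3IP and -0.16 ± 0.09 in siCAMSAP1, with adjusted p of 0.308 and 0.551 by edgeR, and these comparisons share the control libraries. PRPF3, a U4/U6 protein, had 79.2 and 73.9 CPM in siRAB3IP, 74.5 and 69.7 CPM in siCAMSAP1 and 82.2 and 75.6 CPM in control. SNRNP200, the Brr2 helicase that unwinds U4 from U6, and EFTUD2, its GTPase neighbour in U5, had adjusted p of 0.97 and 0.551 by edgeR in siRAB3IP against control.

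In the Prp19 complex, CDC5L separated the knockdowns most. CDC5L had 194 and 197 CPM in siRAB3IP, 167 and 172 CPM in siCAMSAP1 and 187 and 188 CPM in control. The 3 groups did not overlap, with control in the middle. In edgeR's test it differed by 0.24 ± 0.07 between siRAB3IP and siCAMSAP1 with an adjusted p of 0.0629, or 0.00345 with the block. CDC5L also passed there with DESeq2 and with a filter at a mean of 5 CPM. PRPF19, the ubiquitin ligase that names the complex, had 168 and 134 CPM in siRAB3IP, 147 and 128 CPM in siCAMSAP1 and 149 and 139.8 CPM in control, with overlap between all groups. BUD31, a small protein of the activated spliceosome, had 41.4 and 39.2 CPM in siRAB3IP, 38.1 and 37.7 CPM in siCAMSAP1 and 38.2 and 35.3 CPM in control. The BUD31 estimate against control was 0.20 ± 0.09 (adjusted p 0.195 by edgeR, or 0.0466 with the block), and 38.6% of its counted exons overlap PTCD1 on the other strand. CWC22 had 31.3 and 27.1 CPM in siRAB3IP, 32.7 and 32.5 CPM in siCAMSAP1 and 32.0 and 33.9 CPM in control.

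In siCAMSAP1 against control none of the 44 genes was called by edgeR's test, and none had an unadjusted p under 0.05, where 0.94% of all genes were called and 12.1% had an unadjusted p under 0.05. Among genes within the members' range of mean CPM these shares were 1.66% and 15.2%. DESeq2 also called 0 of the 44, and so did edgeR with the replicate block, where 6.31% of all genes were called. Positive estimates numbered 21 and negative ones 23, with a median of 0.00. Over all genes the calls split into 100 higher and 110 lower, and into 74 higher and 128 lower without scaling beyond library size. For 10 members (22.7%) the siCAMSAP1 libraries lay on one side of both control libraries in CPM. The share was 41.4% over all genes and 42.4% over genes within the members' range of CPM. Of the 10 members, 9 lay lower and 1 higher, beside 5392 lower and 3847 higher over all genes tested. Among genes within the members' range of CPM, 1336 lay lower and 1345 higher. PRPF31, a U4/U6 protein, had 84.2 and 81.1 CPM in siCAMSAP1 beside 84.5 and 70.6 CPM in control, an estimate of 0.12 ± 0.10 with an adjusted p of 0.703 by edgeR. No member is listed in the authors' deposited table for siCAMSAP1, which holds 474 genes.

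Set directly against siCAMSAP1, siRAB3IP again had DDX46 as the 1 member called, 2.27% of the 44, where 8.85% of all genes were called (4.89% higher and 3.96% lower). Of genes within the members' range of mean CPM, 14% were called. With the block 7 members (15.9%) were called beside 20.7% of all genes, with DDX46, CDC5L and SNRPA1 higher and SF1, SNRPB2, SF3B5 and AQR lower. Positive estimates numbered 15 and negative ones 29, with a median of -0.05 beside -0.01 for all genes. For 25 members (56.8%) the libraries did not overlap in CPM, where 53.2% of all genes and 63.6% of genes within the members' range of CPM did not. Of the 25 members, 17 lay lower in siRAB3IP and 8 higher, beside 6681 lower and 5203 higher over all genes tested. Among genes within the members' range of CPM, 2290 lay lower and 1729 higher.

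Around the core, 116 other genes of splicing and snRNP biology were read from 8 lists, none holding a member. In siRAB3IP against control 11 of the 116 were called (9.48%), 5 higher and 6 lower, beside the 11.6% of all genes. In siCAMSAP1 against control 0 were called by edgeR, with 10 at an unadjusted p under 0.05, and DESeq2 called 1. In siRAB3IP against siCAMSAP1 8 were called (6.9%), 4 higher and 4 lower, beside the 8.85% of all genes. With the replicate block 21, 6 and 27 of the 116 were called, where 24.1%, 6.31% and 20.7% of all genes were. The share of the 116 was thus below that of all genes in both comparisons against control and above it between the knockdowns. Without siRAB3IP replicate 1 the first count was 2, without siRAB3IP replicate 2 it was 3 and without control replicate 2 it was 2. The same steps gave 2 and 1 in siRAB3IP against siCAMSAP1 without siRAB3IP replicates 1 and 2, and 4 and 3 without siCAMSAP1 replicates 1 and 2.

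**Figure D4:**
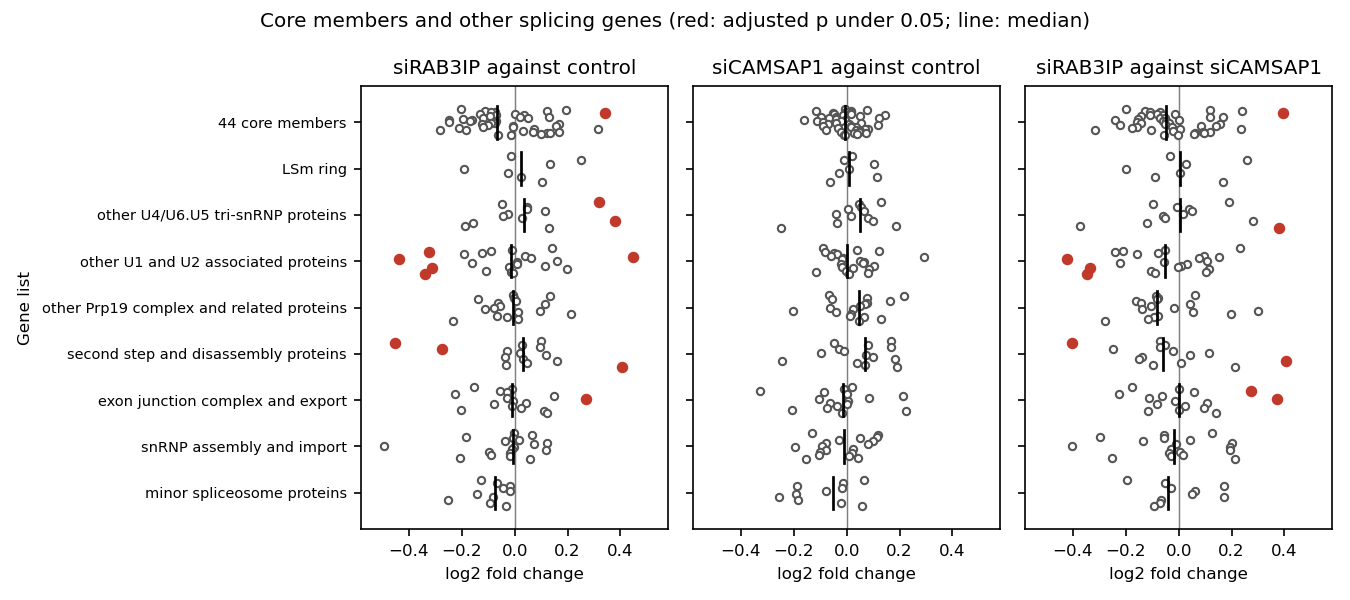
Fitted log2 fold changes of the 44 core genes and of 116 other splicing genes in 8 lists, in siRAB3IP against control, siCAMSAP1 against control and siRAB3IP against siCAMSAP1. Points are genes, red points passed the adjusted p of 0.05 and lines are medians, and the called genes number 11 of the 116 in the left panel, 0 in the middle and 8 in the right panel.

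Of 22 other U1 and U2 associated genes, 5 were called in siRAB3IP against control (22.7%), 4 lower and 1 higher. The share was 11.6% over all genes and 18.7% over genes within the core members' range of mean CPM. U2SURP fell by 0.34 ± 0.09 (log2, SE) and RBM5 fell by 0.31 ± 0.08, with adjusted p of 0.0251 and 0.0226 by edgeR. HTATSF1, a U2-associated protein, fell by 0.32 ± 0.07, with 92.4 and 94.4 CPM in siRAB3IP, 114 and 111 CPM in siCAMSAP1 and 118 and 126 CPM in control and an adjusted p of 0.0158 by edgeR. PHF5A, a small subunit of SF3b, rose by 0.45 ± 0.09, with 63.3 and 60.7 CPM in siRAB3IP, 57.6 and 56.3 CPM in siCAMSAP1 and 49.6 and 45.3 CPM in control and an adjusted p of 0.0065 by edgeR. For HTATSF1 and PHF5A the siRAB3IP libraries lay on one side of the other 4.

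Of 14 second-step and disassembly genes, 3 were called in siRAB3IP against control (21.4%, beside 11.6% of all genes and 18.7% of genes within the core members' range of mean CPM). CDC40, the counterpart of yeast Prp17 in the second catalytic step, fell by 0.45 ± 0.08, with 38.1 and 39.4 CPM in siRAB3IP, 52.8 and 51.9 CPM in siCAMSAP1 and 54.5 and 56.1 CPM in control and an adjusted p of 0.00349 by edgeR. GCFC2 fell by 0.28 ± 0.08, and YJU2, the counterpart of a yeast first-step factor, rose by 0.41 ± 0.10, with adjusted p of 0.0439 and 0.0252 by edgeR. Of 12 other tri-snRNP genes, TXNL4A and CD2BP2, which encode U5 proteins, rose by 0.38 ± 0.09 and 0.32 ± 0.08, with adjusted p of 0.023 and 0.0168 by edgeR. PNN, 1 of 16 genes of the exon junction complex and export, rose by 0.27 ± 0.08 against control (adjusted p 0.0429 by edgeR). The shares called were 16.7% of the 12 other tri-snRNP genes and 6.25% of these 16. No gene of the LSm ring (7), snRNP assembly and import (18), the minor spliceosome (10) or the rest of the Prp19 complex (17) was called in any of the 3 comparisons without the block. With the block LSM3 rose and LSM5, DDX20, TGS1 and ZCRB1 fell in siRAB3IP against control.

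U2SURP, RBM5 and CDC40 were also lower in siRAB3IP than in siCAMSAP1, and PNN also higher, each past the threshold in edgeR's test. ZMAT2, SDE2 and CASC3 differed between the knockdowns in edgeR's test, which called none of them against control without the block. With the block edgeR called all 3 lower in siCAMSAP1 than in control. The blocked edgeR fit also called SDE2 higher in siRAB3IP than in control (0.16 ± 0.06, adjusted p 0.0499). ZMAT2 had 86.9 and 79.7 CPM in siRAB3IP, 67.0 and 63.9 CPM in siCAMSAP1 and 81.0 and 78.0 CPM in control. SDE2 had 90.4 and 91.4 CPM in siRAB3IP, 69.6 and 70.4 CPM in siCAMSAP1 and 82.4 and 87.4 CPM in control, a difference of 0.41 ± 0.07 between siRAB3IP and siCAMSAP1 with an adjusted p of 0.00567 by edgeR. CASC3, a core protein of the exon junction complex, had 134 and 138 CPM in siRAB3IP, 119 and 111 CPM in siCAMSAP1 and 144 and 151 CPM in control, and the authors' deposited table for siCAMSAP1 lists it with -0.3341 ± 0.0803 and an adjusted p of 0.0022.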

How the data were processed

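RNA was measured in 6 HEK293 libraries, poly(A)-selected with a TruSeq kit per the labels' protocols. The authors' deposited count table lists fragments per gene. Per the file headers, featureCounts 1.6.0 counted primary alignments only, required both mates to be mapped, and was given no option for strand. The submitters' processing notes name STAR, DESeq2 and hg19, and no aligner version was found. The signal columns of the deposited comparison tables equal counts over a size factor (1 for each library and table), and each was matched to 1 count column with a tolerance of 1e-09 in log2 ratio, which gave the grouping. The log2 fold changes and p-value columns of the authors' deposited tables hold only genes past their threshold and were used for the values credited to them.

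GENCODE release 29 supplied a symbol for 52181 of the 63677 genes. Tests ran with edgeR 4.0.16 in R 4.3.3 on the counts (TMM scaling, filterByExpr at its defaults, quasi-likelihood test, all 3 groups in 1 model, 3 residual degrees of freedom, Benjamini-Hochberg adjustment over 22331 genes, threshold 0.05), checked on simulated data. SE is the standard error of a log2 fold change, and CPM carry no TMM scaling. Depth sets a floor of 3 counts at 0.0757 to 0.0803 CPM (counting error only). Alternatives were other scalings, filters, tests (DESeq2 1.42.0, limma-voom 3.58.1, glmTreat against a fold of 1.2), a replicate block, groups by record titles and leaving out each library. Robust estimation, no scaling beyond library size, groups by genotype field, transcript lengths and the alternatives for the 116 other genes were added after seeing the data. Genes given in every library were the called members, the 3 highest and 3 lowest estimates per comparison, the highest and lowest level per role and members in the authors' tables; other members were added after their values were seen. Of the other lists, up to 4 called genes per list and comparison were named, and some items are not reported here. Same-numbered libraries deviated together, with correlations of 0.11, 0.148 and 0.15 between the groups, and on that ground alone the replicate numbers were taken to pair libraries; with 2 libraries a group each comparison gives a single such value, and no label says what the number marks. The members and lists were chosen with earlier results of these data known. Of 118 other genes listed, 2 were not matched and are not used here. Python 3.11.15, numpy 2.4.6, pandas 2.3.3 and matplotlib 3.10.9 were also used.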

Additional observations from a re-analysis of the deposited data

How the results depend on the processing

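In siRAB3IP against control the 2597 genes called became 699 with glmTreat and 0 with groups by record titles, and the 1 member called became 3 with DESeq2, 2 with limma-voom, 3 with a mean of at least 5 CPM, 2 with no filter, 3 with upper-quartile scaling, 2 with robust estimation, 5 with no scaling beyond library size and 0 with glmTreat or record titles. The added calls were SF1 and SF3A3, and SNRPA1 with no filter and PRPF6 and AQR with no scaling. Leaving out 1 library gave 1034 to 2491 genes, 0 to 1 member and a member median of -0.0963 to 0.0279. In siCAMSAP1 against control the 210 genes became 388 with DESeq2, 35 with glmTreat, 0 with record titles and 560 with no filter, and 67 to 210 without 1 library. No member was called under any of these settings, and the member median, -0.0506 to 0.0708 without 1 library, was -0.1043 with record titles. In siRAB3IP against siCAMSAP1 the 1977 genes became 513 with glmTreat and 0 with record titles, and 620 to 2296 without 1 library. The 1 member became 2 with DESeq2, 3 with a mean of at least 5 CPM, 2 with no filter, 2 with no scaling, 0 with glmTreat or record titles and 0 to 1 without 1 library, and the median was 0.0714 with record titles and -0.0883 to 0.015 without 1 library. With record titles the DDX46 estimates turned to -0.2248 and -0.1976 with an adjusted p of 1 in edgeR. Of the 116 other genes, 0 were called with glmTreat or record titles in either siRAB3IP comparison, and 2 to 10 and 1 to 10 without 1 library. In siCAMSAP1 against control 1 was called with DESeq2, a mean of at least 5 CPM, no filter, no scaling or upper-quartile scaling, and 0 without 1 library. With groups by genotype field, added after seeing the data, 0 genes, 0 members and 0 of the 116 were called in each comparison, and the DDX46 estimate in siRAB3IP against control was -0.0273. In siRAB3IP against siCAMSAP1 the same shares of members and all genes were 4.55% and 13.7% with DESeq2 and 4.55% and 8.8% with no scaling. They were 6.82% and 15.5% under the 5 CPM filter and 4.55% and 5.92% with no filter. The cause of the shifts between settings was not tested.

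With the replicate block 5371, 1408 and 4630 genes were called in siRAB3IP against control, siCAMSAP1 against control and siRAB3IP against siCAMSAP1 (24.1%, 6.31% and 20.7%), with 12, 0 and 7 members (27.3% and 15.9% of the 44 in the siRAB3IP comparisons) and 21, 6 and 27 of the 116 other genes. The block changed no call of a member other than those given with it in the report.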

Other observations

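Within groups, the library numbered 1 had the higher CPM of a core spliceosome gene more often than the library numbered 2. In 23 of the 44 genes (52.3%) this held in siRAB3IP, siCAMSAP1 and control alike, where 15.8% of all genes tested and 24.2% of genes in the same range of mean CPM did so, and 3 members (6.82%) had the opposite order in all groups. With TMM scaling the count was 27 of 44 (61.4%), against 21.2% of all genes tested and 34.6% of genes in the same range of mean CPM. SNRPB and U2AF2 are examples, and SNRPB had 508, 517 and 526 CPM in replicate 1 of siRAB3IP, siCAMSAP1 and control and 452, 460.2 and 424 CPM in replicate 2. What the shared number stands for is not given in the sources used here.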
